A study of Mus musculus with 6 samples.

Results

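Transglutaminases and peptidylarginine deiminases are enzymes that modify the proteins of the cornified layer of the epidermis. The 8 genes described here, Tgm1, Tgm2, Tgm3, Tgm5, Padi1, Padi2, Padi3 and Padi4, were chosen by name out of the 43629 genes in the count table, and each was found there. The names had been listed with earlier results of the same libraries in view, so the level of each gene in both groups and its fold change are given as a description and not as independent evidence that the families respond. The other 6 genes of the families, Tgm4, Tgm6, Tgm7, F13a1, Epb42 and Padi6, are included so that each family can be seen whole.

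RNA came from epidermal keratinocytes of 3 control mice and 3 Dnmt1Δ/Δep mice, female by the labels and taken at postnatal day 3, on a mixed C57BL/6J and 129SV background. In Dnmt1Δ/Δep mice (K5-Cre+ Dnmt1 f/f), Cre recombinase driven by the keratin 5 promoter deleted both floxed copies of Dnmt1, the methyltransferase that copies DNA methylation after replication, while controls were Dnmt1 f/f or Dnmt1 f/+ without Cre. Both groups were grown for 5 days, by the labels and methods (another passage of the study gives a shorter time), in keratinocyte growth medium low in calcium (0.05 mM CaCl2) with 8% chelated serum, on dishes coated with collagen and fibronectin. Cells of lineages in which the keratin 5 promoter was never active would keep Dnmt1.

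Transglutaminases join glutamine to lysine side chains and so weld the proteins of the cornified envelope together. Peptidylarginine deiminases turn arginine into citrulline, which removes positive charge from keratins, filaggrin and trichohyalin and loosens how these proteins pack. Both kinds of enzyme need calcium. Medium low in calcium keeps cultured mouse keratinocytes largely in a basal, proliferating state, whereas Tgm1, Tgm3, Tgm5, Padi1 and Padi3 are known from the upper layers of the epidermis or from the hair follicle.

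The 5 Padi genes lie side by side on mouse chromosome 4 (GRCm38), in a span of 225.2 kb at chr4:140727355-140952586, in the order Padi6, Padi4, Padi3, Padi1 and Padi2. The first 4 are transcribed from the minus strand and Padi2 from the plus strand. The stretches around their starts are shown because the fold changes below differ along the cluster and the cells compared differ in the enzyme that maintains methylation at CpG dinucleotides. Each stretch runs from 250 bases before to 50 bases after the start in RefSeq (GRCm38.p6), is written 5′ to 3′ on the strand of the gene, and has its CpG dinucleotides in capitals. The windows are chr4:140810599-140810898 for Padi3, chr4:140845729-140846028 for Padi1, chr4:140774154-140774453 for Padi4, all on the minus strand, and chr4:140906110-140906409 on the plus strand for Padi2.
Padi3: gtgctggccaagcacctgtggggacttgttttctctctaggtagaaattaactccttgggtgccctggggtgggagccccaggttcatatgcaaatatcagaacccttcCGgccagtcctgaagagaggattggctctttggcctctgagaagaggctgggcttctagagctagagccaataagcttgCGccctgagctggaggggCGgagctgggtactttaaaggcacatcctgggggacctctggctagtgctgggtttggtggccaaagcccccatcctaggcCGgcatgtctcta
Padi1: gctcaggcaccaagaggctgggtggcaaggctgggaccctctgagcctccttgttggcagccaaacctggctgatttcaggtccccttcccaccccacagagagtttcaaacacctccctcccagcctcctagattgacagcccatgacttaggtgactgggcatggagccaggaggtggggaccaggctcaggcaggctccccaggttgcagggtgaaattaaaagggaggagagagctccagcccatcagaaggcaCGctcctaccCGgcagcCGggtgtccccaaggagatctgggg
Padi4: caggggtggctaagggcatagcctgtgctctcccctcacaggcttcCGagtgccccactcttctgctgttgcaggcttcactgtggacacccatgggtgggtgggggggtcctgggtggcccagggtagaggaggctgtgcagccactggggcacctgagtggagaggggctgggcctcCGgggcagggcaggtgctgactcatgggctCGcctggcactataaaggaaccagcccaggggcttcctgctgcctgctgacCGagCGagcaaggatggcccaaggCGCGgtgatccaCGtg
Padi2: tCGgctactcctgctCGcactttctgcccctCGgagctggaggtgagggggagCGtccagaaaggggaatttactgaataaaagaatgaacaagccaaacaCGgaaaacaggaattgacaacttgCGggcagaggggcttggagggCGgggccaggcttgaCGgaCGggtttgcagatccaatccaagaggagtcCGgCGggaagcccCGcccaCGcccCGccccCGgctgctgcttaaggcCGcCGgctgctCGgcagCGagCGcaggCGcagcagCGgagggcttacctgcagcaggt

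The Padi3 window held 4 CpG dinucleotides, the Padi1 window 3, the Padi4 window 8 and the Padi2 window 22, beside a median of 7 over 32851 windows of the same length. As few or fewer CpGs were present in 31.4% of all windows for the count in Padi1, 38.0% for Padi3, 54.2% for Padi4 and 78.5% for Padi2. Methylation was not measured in these libraries, so the counts describe sequence alone. A search of both strands for GGGCGG, the core of a GC box, found 3 matches in Padi2 and 1 in Padi3, and these letters occur in 35.7% of all windows. The Padi4 window had 1 match to TATAAA, the core of a TATA box, and 1 to TGANTCA, the core bound by AP-1 factors, which occur in 13.6% and 7.81% of all windows. The Padi1 window matched none of the 3. Of the 8 genes, 7 had a window (not Tgm2), and the windows of the transglutaminase genes held 12 and 9 CpGs at the 2 starts of Tgm1, 7 at Tgm3 and 3 at Tgm5.

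Libraries held between 53433121 and 115526598 reads counted on genes. Levels are counts per 1000000 counts of the library, scaled by TMM factors (CPM). Dnmt1 itself fell from 394, 379 and 324 CPM in the 3 controls to 49.7, 54.3 and 50.7 CPM in the 3 Dnmt1Δ/Δep libraries (log2 fold change -2.83 ± 0.11 SE, edgeR adjusted p = 8.1e-05). The basal keratin genes Krt5 and Krt14 marked the cultures as keratinocytes, with Krt5 at 16551 to 18801 CPM in controls and 12572 to 12782 CPM in Dnmt1Δ/Δep libraries. The 6 basal keratinocyte markers summed to 28820 to 32700 CPM in controls and 21800 to 22220 CPM in Dnmt1Δ/Δep libraries. None passed, since no change reached 1 in size, but Krt5, Krt14 and Col17a1 were lower without overlap (log2 fold changes of -0.50, -0.61 and -0.55, edgeR adjusted p of 0.0380, 0.0275 and 0.0347). The part of this difference in the results on the enzymes was not tested. Control replicate 1 had lower levels of Krt1 and Krt10 than the other controls, with Krt1 at 53.2 CPM against 356 and 530 CPM. Log2 fold changes are Dnmt1Δ/Δep over control with 3 libraries in each group, and a gene is said to have risen or fallen where the adjusted p over all genes tested was at most 0.05 and the log2 fold change at least 1 in size. By that rule 1014 of 16829 genes tested rose (6.03%) and 66 fell (0.392%), and the libraries of the groups did not overlap for 29.9% of genes, in either direction.

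Among the 8 genes, 4 rose (Padi3, Padi1, Padi4 and Tgm2), none fell with edgeR or DESeq2 (0 at an unadjusted p below 0.05) and 4 did not pass (Tgm1, Tgm3, Tgm5 and Padi2). The libraries of the groups did not overlap for the 4 that rose and overlapped for the other 4. Since the genes were listed with this contrast known, nothing is read from these counts against the background of 6.03%.

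**Figure D1:**
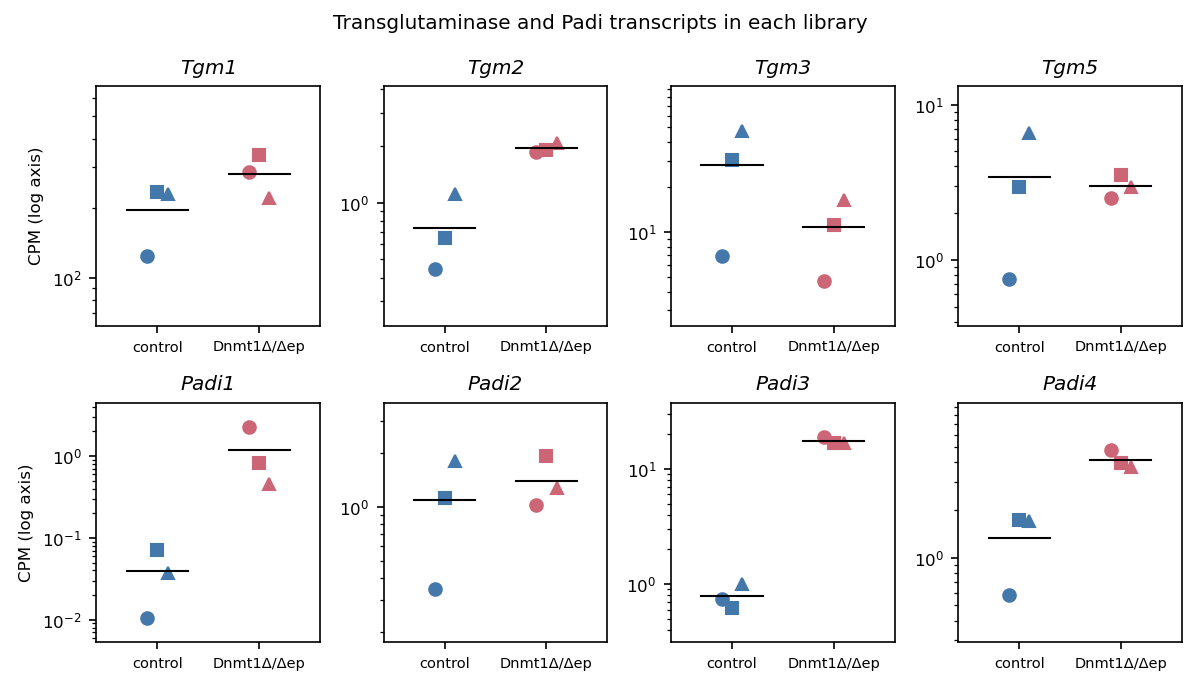
CPM of the 8 genes in each library, on log axes with a range of their own per gene; circles, squares and triangles are replicates 1, 2 and 3 of each group and bars are group means. The 3 Dnmt1Δ/Δep libraries lie between 16.6 and 18.8 CPM for Padi3, above the controls, which reach 1.01 CPM, while the groups overlap for Tgm1, Tgm3, Tgm5 and Padi2.

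Padi3 (chr4:140785365-140810648, 16 exon blocks), which deiminates trichohyalin in the hair follicle and filaggrin in the upper epidermis, had the most uniform rise. It was at 0.751, 0.626 and 1.01 CPM in controls and at 18.8, 16.6 and 16.7 CPM in Dnmt1Δ/Δep libraries, from 54 to 71 counts against 1118 to 1965 counts. The lowest Dnmt1Δ/Δep library exceeded the highest control 16.5-fold, and within each group the highest library was 1.61 times and 1.13 times the lowest. The log2 fold change was 4.46 ± 0.22 (SE), with a 95% interval of 3.96 to 4.97 and an edgeR adjusted p of 1.1e-04. It stayed between 4.31 and 4.65 under the 12 alternative analyses and passed in each of them. Inner root sheath and medulla markers are given beside it. Of the 8 markers 4 were tested and none passed with edgeR or DESeq2 (1 higher and 1 lower at an unadjusted p below 0.05), and their sum, nearly all Tchh and Gata3, was 96.4 to 128.6 CPM in controls and 73.4 to 83.5 CPM in Dnmt1Δ/Δep libraries. Gata3 was lower without overlap but by less than 1 (-0.79, edgeR adjusted p = 0.0154), and the inner root sheath keratins Krt25, Krt27, Krt28, Krt71, Krt72 and Krt73 were at most 0.349 CPM in any library. Their part in the Padi3 result was not tested.

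Padi1 (chr4:140812983-140845778) lies beside Padi3 and encodes a deiminase found through the layers of the epidermis, known to act on keratins and filaggrin. It was close to silent in controls, with 1, 7 and 2 counts, against 134, 71 and 53 counts in Dnmt1Δ/Δep libraries. On the CPM scale this was 0.0106, 0.0718 and 0.0372 against 2.25, 0.821 and 0.449. The lowest Dnmt1Δ/Δep library was 6.25 times the highest control, and the Dnmt1Δ/Δep libraries themselves spanned 5.00-fold. In the fit its log2 fold change was 4.79 ± 0.85 (SE), with a 95% interval of 2.80 to 6.78 (edgeR adjusted p = 0.0150). The control level was near the limit of counting, where 3 counts are worth 0.0308 to 0.0558 CPM, so the level and the fold are far less precise than for Padi3. It was 3.93 without Dnmt1Δ/Δep replicate 1 and 5.69 without control replicate 2, and passed in both (edgeR adjusted p = 0.0367 and 0.0452). Exons of Gm13032, on the opposite strand, cover 32.0% of the exon sequence of Padi1, and the sources used here do not say whether counting used strand. Gm13032 had 6, 6 and 3 counts in controls and 3, 8 and 10 counts in Dnmt1Δ/Δep libraries, fewer than Padi1 had in any Dnmt1Δ/Δep library.

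Padi4 (chr4:140745865-140774236), the deiminase that enters the nucleus and modifies histones, best known from neutrophils, rose by a smaller amount. It was at 0.581, 1.72 and 1.71 CPM in controls and 4.78, 3.95 and 3.72 CPM in Dnmt1Δ/Δep libraries. Each Dnmt1Δ/Δep library lay above each control, and control replicate 1 was lowest. The log2 fold change was 1.64 ± 0.41 (SE; 95% interval 0.69 to 2.59; edgeR adjusted p = 0.0485), just inside the threshold. With the replicate number as a block the log2 fold change was 1.74 and the adjusted p 0.0538, which does not pass. It also did not pass without control replicate 2 (1.87, adjusted p = 0.0993), control replicate 3 (1.84, adjusted p = 0.0673) or any of Dnmt1Δ/Δep replicates 1, 2 and 3 (1.53, 1.62 and 1.71, adjusted p = 0.155, 0.123 and 0.104).

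Neutrophils and other myeloid cells are a known source of Padi4, so their markers are given beside it. Of 8 neutrophil markers 6 were below 0.05 CPM in all libraries, Csf3r and Retnlg were at 0 counts, and the list summed to 0.159 to 0.521 CPM in controls and 0.576 to 1.28 CPM in Dnmt1Δ/Δep libraries. Cxcr2, a chemokine receptor gene and the one marker of the list that was tested, made up most of this, at 0.159, 0.195 and 0.410 CPM in controls and 1.07, 1.27 and 0.534 CPM in Dnmt1Δ/Δep libraries. The groups did not overlap, and its log2 fold change of 1.95 ± 0.50 (SE) missed the threshold with edgeR (adjusted p = 0.0535), while DESeq2 called it up. Of 8 macrophage and dendritic cell markers 4 were tested and 2 rose, beside 6.03% of all genes tested, and nothing is read from the difference. The 2 were Csf1r (log2 fold change 2.67 ± 0.56 SE, edgeR adjusted p = 0.0271) and Itgam (2.35 ± 0.58 SE, edgeR adjusted p = 0.0466). Their list summed to 0.317 to 1.17 CPM in controls and 2.63 to 4.56 CPM in Dnmt1Δ/Δep libraries, and Ptprc, the pan-leukocyte gene, had at most 2 counts in a control and 12, 1 and 0 counts in Dnmt1Δ/Δep libraries. Their part in the Padi4 result was not tested. In RNA of whole cultures, fewer cells of a type and less RNA per cell cannot be told apart.

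Padi2 (chr4:140906344-140952586), the deiminase with the broadest range of tissues, known for modifying myelin basic protein, did not pass the test. It was at 0.349, 1.12 and 1.81 CPM in controls and at 1.02, 1.91 and 1.26 CPM in Dnmt1Δ/Δep libraries. The groups overlapped, with the highest control above 2 of the Dnmt1Δ/Δep libraries. Its log2 fold change was 0.38 ± 0.55 (SE), and the 95% interval of -0.92 to 1.67 leaves room for a change of either sign (edgeR adjusted p = 0.770). Without control replicate 1 the value was -0.05. Padi6, the deiminase of oocytes, had 0, 1 and 3 counts in controls and 0, 2 and 0 counts in Dnmt1Δ/Δep libraries and was not tested.

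No gene on either side of the cluster passed with edgeR, where 1 had an unadjusted p below 0.05 with a higher level and 3 with a lower level. Of the 6 other coding genes within 100 kb of the span, Rcc2 (log2 fold change -0.34), Sdhb (-0.23), Atp13a2 (0.26), Mfap2 (0.16) and Crocc (-0.67) were within 1 of no change. Arhgef10l, a guanine nucleotide exchange factor gene, was at 4.83, 12.0 and 16.1 CPM in controls and 23.4, 29.7 and 22.7 CPM in Dnmt1Δ/Δep libraries, with a log2 fold change of 1.21 ± 0.39 (SE) that missed the threshold (edgeR adjusted p = 0.106). It passed with DESeq2 (1.18, adjusted p = 0.0149) and with edgeR without the filter on low counts (1.17, adjusted p = 0.0293). By start site, the 3 Padi genes that rose are Padi3 itself, Padi4 at -36.4 kb and Padi1 at 35.1 kb from the start of Padi3, whereas Padi2 starts at 95.7 kb. Among the 4 tested Padi genes, the log2 fold change was larger where the window above held fewer CpGs. It was 4.79 for Padi1 (3 CpGs), 4.46 for Padi3 (4), 1.64 for Padi4 (8) and 0.38 for Padi2 (22). Padi6, with 2 CpGs, had 0 to 3 counts in each library and was not tested. Outside the cluster, Tgm5, with 3 CpGs, had a log2 fold change of -0.18. The relation of CpG number to fold change was not tested.

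**Figure D2:**
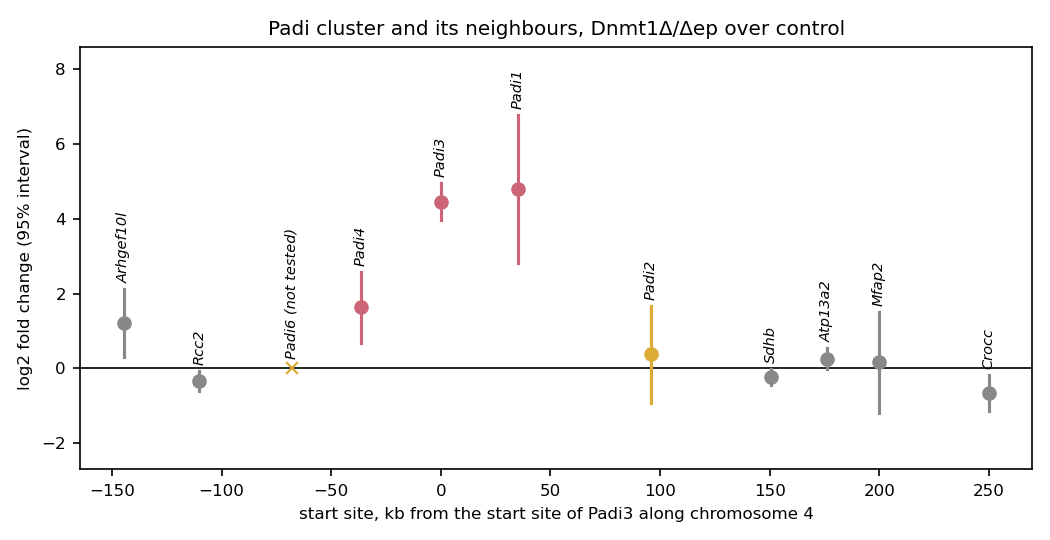
Log2 fold change of the Padi genes and of coding genes within 100 kb, with 95% intervals, against the distance of each start site from that of Padi3 in kb; Padi genes that rose are red, other Padi genes yellow and neighbours grey. Padi4, Padi3 and Padi1 stand at 1.64, 4.46 and 4.79, and Padi2 and 5 of the neighbours lie within 1 of no change.

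Scaled by exon length (RPKM, which divides CPM by the exon length in kilobases), so that genes can be set against each other, the 5 Padi genes summed to 0.410, 0.784 and 1.04 RPKM in controls and 7.23, 6.24 and 5.97 RPKM in Dnmt1Δ/Δep libraries. In controls no Padi gene had a mean above 0.277 RPKM, the level of Padi4, with Padi3 at 0.230 ± 0.0561 and Padi2 at 0.218 ± 0.145 RPKM (mean ± SD, n = 3). These 3 controls' spreads overlap, so their order is not resolved. In Dnmt1Δ/Δep libraries Padi3 had 5.03 ± 0.357 RPKM, above Padi4 at 0.859 ± 0.115 RPKM. Padi1 at 0.312 ± 0.253 and Padi2 at 0.279 ± 0.0913 RPKM had overlapping spreads. Padi3 made up 53.1%, 23.2% and 28.1% of the Padi sum in controls and 75.2%, 77.1% and 80.9% in Dnmt1Δ/Δep libraries. The share of Padi2 was 17.0%, 28.4% and 34.7% in controls and 2.82%, 6.10% and 4.22% in Dnmt1Δ/Δep libraries, although its own level did not pass the test.

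**Figure D3:**
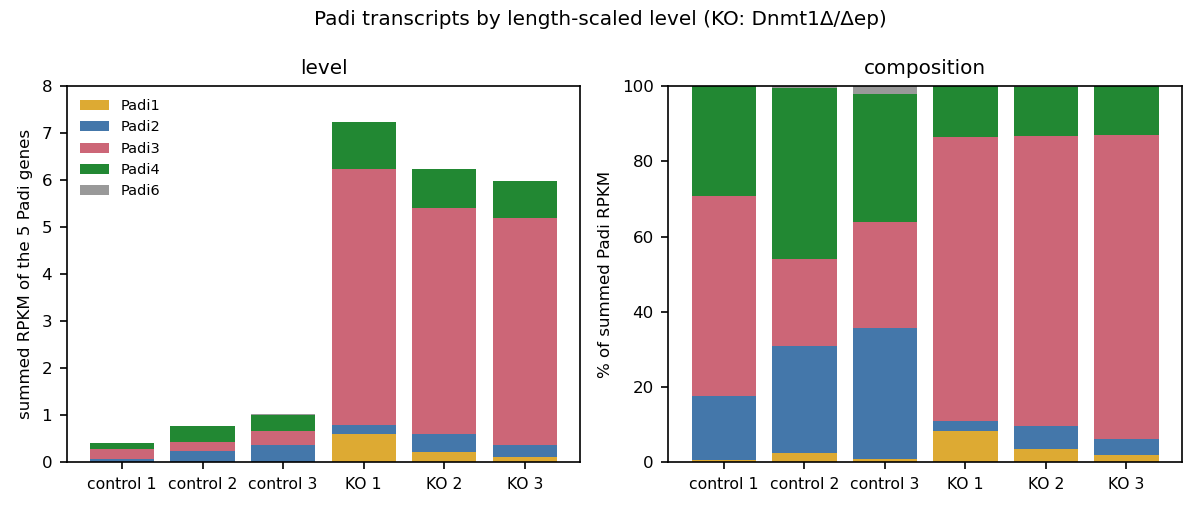
Summed RPKM of the 5 Padi genes in each library (left) and the share of each gene in that sum (right), with KO for Dnmt1Δ/Δep. The sum is at most 1.04 RPKM in a control and at least 5.97 RPKM in a Dnmt1Δ/Δep library, and Padi3 takes at least 75.2% of it there.

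Among the transglutaminases, Tgm1 (chr14:55700009-55713926) is the membrane-anchored enzyme of the cornified envelope, and its loss causes lamellar ichthyosis in people. It was at 123.5, 236 and 229.5 CPM in controls and 286.5, 338 and 222 CPM in Dnmt1Δ/Δep libraries. The groups overlapped, since Dnmt1Δ/Δep replicate 3 lay below 2 of the controls. A log2 fold change of 0.52 ± 0.26 (SE) did not pass, and its 95% interval was -0.09 to 1.14 (edgeR adjusted p = 0.290). It did not pass under any of 12 alternatives, where it ranged from 0.28 to 0.68. Per length it was the most abundant gene of both families. Tgm1 had 62.0 ± 19.9 RPKM in controls and 89.2 ± 18.4 RPKM in Dnmt1Δ/Δep libraries, and it made up 83.4% to 91.8% of the summed transglutaminase RPKM in controls and 92.3% to 97.1% in Dnmt1Δ/Δep libraries.

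Tgm3 (chr2:130012349-130050399), the transglutaminase that proteases activate and that cross-links trichohyalin and small proline-rich proteins in hair and epidermis, was lower by value in each Dnmt1Δ/Δep library than in the control of the same number. It was at 6.88, 30.4 and 47.3 CPM in controls and 4.73, 11.2 and 16.5 CPM in Dnmt1Δ/Δep libraries. Within the groups the highest library was 6.87 and 3.48 times the lowest, and control replicate 1 lay among the Dnmt1Δ/Δep libraries. The log2 fold change of -1.38 ± 0.69 (SE; 95% interval -2.98 to 0.23) did not pass (edgeR adjusted p = 0.285). With libraries of one number taken as a block, Tgm3 had -1.18 and passed (edgeR adjusted p = 0.0261), and the log2 differences by number were -0.54, -1.44 and -1.52. It also passed without control replicate 1 (-1.84, edgeR adjusted p = 0.0449). Whether Tgm3 is called therefore rests on that library and on the pairing.

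Tgm5 (chr2:121046111-121085841), the enzyme lost in acral peeling skin syndrome, differed in sign between the pairs of libraries. It was at 0.751, 2.97 and 6.59 CPM in controls and 2.50, 3.54 and 2.96 CPM in Dnmt1Δ/Δep libraries. The controls spanned 8.78-fold and enclosed the 3 Dnmt1Δ/Δep libraries. The log2 fold change was -0.18 ± 0.65 (SE; edgeR adjusted p = 0.919), 0.23 with the replicate number as a block and 0.69 without control replicate 3, and it passed in none of these.

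Suprabasal keratinocyte markers are given beside Tgm3 and Tgm5. Of the 6 markers none passed with edgeR, where 2 had an unadjusted p below 0.05 with a higher level and 3 with a lower level, and DESeq2 called 2 up and 2 down. Their sum was 1167, 1456 and 1937 CPM in controls and 1504, 1203 and 857.5 CPM in Dnmt1Δ/Δep libraries. Krt1, the keratin of the first suprabasal layer, had 53.2, 356 and 530 CPM in controls, with the lowest value in the same library as for Tgm1, Tgm3 and Tgm5, and 66.1, 59.2 and 65.5 CPM in Dnmt1Δ/Δep libraries (edgeR adjusted p = 0.0846). Its partner Krt10 was also lower by value (log2 fold change -1.58, edgeR adjusted p = 0.0695). The late envelope genes of the list had the opposite sign, with Ivl at 1.61 (edgeR adjusted p = 0.0615) and Lor at 1.70 (edgeR adjusted p = 0.0535), and neither overlapped between groups. The part of these markers in the Tgm3 and Tgm5 values was not tested.

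Tgm2 (chr2:158116402-158146436), tissue transglutaminase, which is made by many cell types including endothelium and fibroblasts, rose from a low level. It was at 0.444, 0.646 and 1.12 CPM in controls and 1.86, 1.90 and 2.08 CPM in Dnmt1Δ/Δep libraries, without overlap and with a Dnmt1Δ/Δep spread of 1.12-fold. The log2 fold change was 1.42 ± 0.35 (SE; 95% interval 0.59 to 2.25; edgeR adjusted p = 0.0495), the closest to the threshold of the 4 genes that rose. It did not pass without control replicate 2 (1.34, adjusted p = 0.174) or without Dnmt1Δ/Δep replicate 1, 2 or 3 (1.45, 1.39 and 1.37, adjusted p = 0.132, 0.132 and 0.138). Per length Tgm2 had 0.160 ± 0.0749 RPKM in controls and 0.422 ± 0.0250 RPKM in Dnmt1Δ/Δep libraries, below 1% of the transglutaminase sum in each library. Exons of Gm20412 and of Rprd1b, both on the opposite strand, cover 13.7% and 8.03% of its exon sequence. Gm20412 had 0 counts in each library, whereas Rprd1b had 2801 to 6764 counts (61.6 to 63.5 CPM in controls and 47.0 to 57.3 CPM in Dnmt1Δ/Δep libraries), far more than Tgm2. Rprd1b was not higher in any Dnmt1Δ/Δep library than in a control. The methods name the union setting of htseq-count but give no strand setting. How reads over the shared exons were counted is therefore not known here, and such reads may be missing from Tgm2.

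Endothelial and fibroblast markers are given beside Tgm2. Of 6 endothelial markers 5 were tested and 2 rose, beside 6.03% of all genes tested, and nothing is read from the difference. The 2 were Pecam1 (1.89 ± 0.28 SE, edgeR adjusted p = 0.00748) and Cdh5 (4.11 ± 0.65 SE, edgeR adjusted p = 0.00966). Kdr, the VEGF receptor gene of endothelium, had a log2 fold change of -0.16, with 13.3, 4.37 and 2.75 CPM in controls and 6.39, 3.09 and 8.87 CPM in Dnmt1Δ/Δep libraries. Of the 5, 4 were above 0 and 1 below, and the list summed to 6.83 to 17.9 CPM in controls and 16.6 to 23.8 CPM in Dnmt1Δ/Δep libraries. All 8 fibroblast markers were tested and none passed with edgeR or DESeq2 (3 and 4 at an unadjusted p below 0.05, all higher), with sums of 15.8 to 33.8 CPM and 17.0 to 67.3 CPM. All 7 melanocyte markers had log2 fold changes above 0, none passed with edgeR (4 at an unadjusted p below 0.05) and DESeq2 called 1 up, and they summed to 224.2 to 573.2 CPM in controls and 688.4 to 911.9 CPM in Dnmt1Δ/Δep libraries. The part of these 3 lists in the Tgm2 result, and of melanocyte markers in the Padi results, was not tested.

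The other transglutaminase genes included the only 2 of both families that fell. Tgm7, a little-studied member that lies next to Tgm5 on chromosome 2, fell from 1.09, 1.20 and 0.652 CPM to 0.336, 0.335 and 0.305 CPM (log2 fold change -1.60 ± 0.33 SE, edgeR adjusted p = 0.0252). F13a1, the catalytic subunit of clotting factor XIII and also a gene of macrophages, fell from 6.14, 3.32 and 1.66 CPM to 1.01, 0.590 and 1.09 CPM (-2.05 ± 0.49 SE, edgeR adjusted p = 0.0440). The groups overlapped for neither. Tgm7 did not pass without control replicate 2 (-1.43, adjusted p = 0.113) or without Dnmt1Δ/Δep replicate 1, 2 or 3 (-1.62, -1.67 and -1.55). F13a1 did not pass without control replicate 1 (-1.48, adjusted p = 0.0527), control replicate 2 (-2.13) or Dnmt1Δ/Δep replicate 1, 2 or 3 (-2.14, -1.87 and -2.23).

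Tgm4, the prostate transglutaminase, had 0, 21 and 12 counts in controls and 1, 6 and 23 counts in Dnmt1Δ/Δep libraries. Tgm6, a neural transglutaminase next to Tgm3, had 18, 27 and 12 counts and 14, 12 and 37 counts. Neither passed. Epb42, the family member without catalytic activity in the red cell membrane, had at most 4 counts in any library and was not tested. Of the 8 transglutaminase family genes tested, 1 rose, 2 fell and 5 did not pass, with a median log2 fold change of -0.33, and of the 4 Padi genes tested, 3 rose and 1 did not pass, with a median of 3.05. Over all genes tested 6.03% rose and 0.392% fell, and nothing is read from the difference. The median over all 16829 genes was -0.00089.

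**Figure D4:**
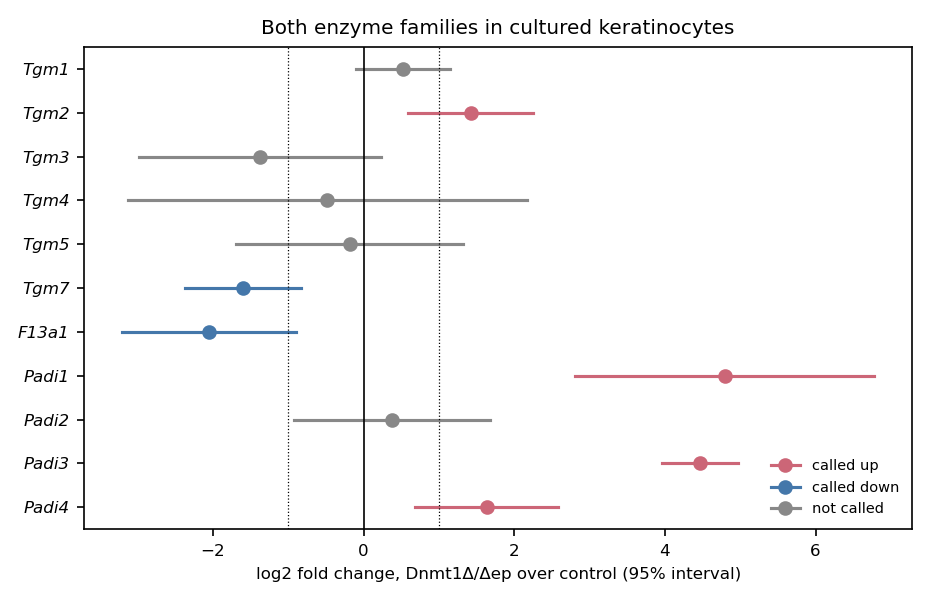
Log2 fold change of 11 tested family genes with 95% intervals; red genes rose, blue genes fell, grey genes did not pass, and dotted lines mark a change of 1. Tgm6 is left out because its value of 0 gave no interval, and the interval of Padi3 (3.96 to 4.97) is the narrowest among the genes that rose.

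Lists of substrates and partners of the enzymes are described by count. Of 58 cornified envelope proteins, the substrates of transglutaminases, 54 were tested, 4 rose, 1 fell and the median log2 fold change was 0.31, with 40 genes above 0 and 14 below. The shares were 7.41% up and 1.85% down, beside 6.03% and 0.392% of all genes tested, and nothing is read from the difference. The 4 were Sprr3 (3.23 ± 0.46 SE), Tchhl1 (2.25 ± 0.45), Sprr2k (2.13 ± 0.51) and Cnfn (1.97 ± 0.43), with edgeR adjusted p of 0.00687, 0.0233, 0.0432 and 0.0324. Sprr3, a small proline-rich envelope precursor, was at 0.243, 0.123 and 0.261 CPM in controls and 2.65, 2.13 and 1.08 CPM in Dnmt1Δ/Δep libraries. Tchhl1, a relative of trichohyalin, was at 0.328, 0.657 and 1.04 CPM against 4.41, 2.51 and 2.62 CPM. Lce3d, a late cornified envelope gene, fell (-1.08 ± 0.24 SE, edgeR adjusted p = 0.0355). With the replicate number as a block 5 rose and 2 fell. Leaving out control replicate 3 gave 10 that rose, leaving out Dnmt1Δ/Δep replicate 2 gave 2, and leaving out either control replicate 2 or Dnmt1Δ/Δep replicate 1 gave 1. Those that fell were 3 when control replicate 1 was left out, and 0 when the library left out was control replicate 2 or 3 or Dnmt1Δ/Δep replicate 1 or 3.

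Known substrates of the deiminases were picked out after their values were seen. Trichohyalin (Tchh), the main substrate of Padi3 in the hair follicle, had 23.5, 22.3 and 29.9 CPM in controls and 30.3, 27.2 and 28.6 CPM in Dnmt1Δ/Δep libraries (log2 fold change 0.19 ± 0.14 SE, edgeR adjusted p = 0.489). The keratins Krt1 and Krt10, given above beside Tgm3, had log2 fold changes of -2.30 and -1.58 that did not pass with edgeR, while DESeq2 called 2 of the suprabasal markers down. Filaggrin (Flg) had 0, 1 and 1 counts in controls and 0, 5 and 0 counts in Dnmt1Δ/Δep libraries. None of the 9 filaggrin processing genes (median 0.00) and none of the 13 tested calcium and protease genes (median 0.11) passed in either direction with edgeR, where at an unadjusted p below 0.05 the lists had 1 and 4 genes with higher levels and 0 and 1 with lower levels. DESeq2 called none of the filaggrin processing genes (3 higher and 1 lower at an unadjusted p below 0.05) and 1 calcium and protease gene, which rose. Leaving out control replicate 3 gave 1 filaggrin processing gene and 2 calcium and protease genes that rose.

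**Figure D5:**
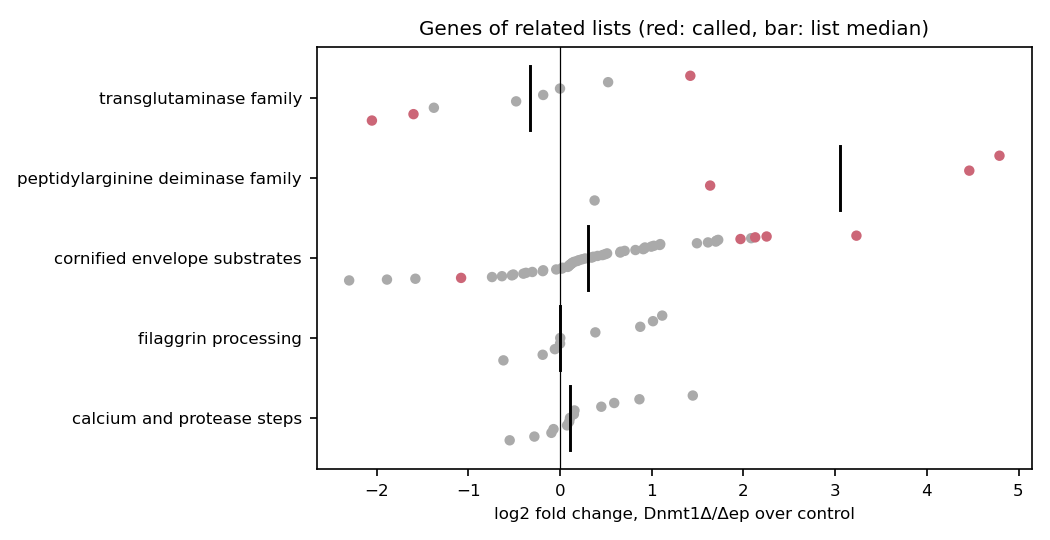
Log2 fold change of each tested gene of both families and of 3 related lists, one point per gene sorted within its list, red where the gene rose or fell, with a bar at the list median. The Padi median is 3.05, the transglutaminase median -0.33, and the medians of the other lists lie between 0.00 and 0.31.

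The genes with the profile most like each enzyme gene over the 6 libraries were found by the root mean square difference of centred log2 CPM among 12463 genes. For Padi3 these were Myh7b, Apol7a and Fabp4, at distances of 0.21, 0.22 and 0.24. For Padi4 they were Cpne5, Lhfpl2 and B4galt6 (0.14, 0.19 and 0.23) and for Tgm2 Bhlhe40, Slc16a3 and Dnase1l3 (0.12, 0.13 and 0.13). Tgm5 and Padi2 shared Egr3 and Tuba8 among their nearest 3, with Stfa3 first for Tgm5 (0.18) and Egr3 first for Padi2 (0.13). Tgm3 was nearest to Klhl38, Gm9696 and Stfa1 (0.29, 0.33 and 0.34). For Padi1 they were Klk14, Slc34a2 and Spn (0.68, 0.69 and 0.73). Distances are in log2 units and are not scaled by the spread of each gene. That spread was largest for Padi1, with an SD of log2 CPM of 2.63 against 2.45 for Padi3 and 1.26 for Tgm3. The controls of Padi1 also held only 1, 7 and 2 counts. Tgm1 varied too little over the libraries to be matched.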

How the data were processed

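Poly(A)-selected RNA of 3 control and 3 Dnmt1Δ/Δep keratinocyte cultures was sequenced. The authors trimmed reads, aligned them with STAR and counted genes with htseq-count. The deposited table gives raw counts per Ensembl gene. The labels name GRCm38, whereas the text of the methods names a human build for this step. The 5 entries naming no gene held 8.73% to 12.9% of reads and were left out. Tables of repeats and of the authors' own comparisons (fold changes and p-values) were not used, nor were 18 columns of per-library values in them.

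Counts were tested with edgeR 4.0.16 (R 4.3.3; quasi-likelihood, TMM, filterByExpr with minimum counts of 10 and 15), two-sided, with Benjamini-Hochberg adjustment over 16829 genes, and the fit was tested on simulated data. SE is the size of the fitted change divided by the root of its F statistic. CPM use TMM-scaled libraries of the filtered genes. RPKM use GENCODE M21 exon lengths on GRCm38, as do positions. A symbol was found for 97.3% of genes. Intervals cover the spread between these libraries as the fit estimates it, and the 3-count floor covers counting error only.

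Labels give each group replicates 1 to 3, and headers give both libraries of a number the same prefix, whose meaning is not stated. Deviations from group means correlated within numbers (0.453, 0.359 and 0.298 over 12463 genes). Correlations between different numbers were not computed. Libraries of the same number were treated as pairs only in the block fit and in differences by number. The main fit has no block, as the methods name none, and the calls of Padi4 and Tgm3 change with the block. Nothing says more of how cultures were separated, so p-values measure the spread between these libraries.

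The genes, lists and tests were chosen with earlier results of these data known. Named genes are the 8 enzymes, the rest of both families, Dnmt1, the called genes with the largest changes of each list (up to 2 a direction, averaging 50 counts or more; further called or marker genes were named after their values were seen), coding genes within 100 kb of the Padi cluster, and the 3 nearest profiles of enzyme genes whose log2 CPM had an SD of at least 0.5, among genes of at least 1 CPM. Alternatives were DESeq2 1.42.0 and its size factors, upper-quartile factors, no filter, a mean RPKM of at least 1, the block, and each library left out. Figures used Python, pandas and matplotlib.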

Additional observations from a re-analysis of the deposited data

How the results depend on the processing

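Padi3 and Padi1 kept their direction and passed in all alternatives that gave a value (12 and 11). No value was given for Tgm2, Padi1, Padi2 and Padi4 where genes needed a mean RPKM of at least 1. The replicate block changed the call of Padi4 (1.74, no longer past the threshold) and of Tgm3 (-1.18, now past it) and the sign of Tgm5 (0.23), and it changed no other enzyme gene's call. Tgm6, at 0, had 0.011 with upper-quartile factors. With 1 library left out, log2 fold changes ranged from 3.93 to 5.69 for Padi1, 4.31 to 4.65 for Padi3, 1.16 to 1.83 for Tgm2, -1.84 to -0.78 for Tgm3, -0.66 to 0.69 for Tgm5, -0.052 to 0.93 for Padi2, 1.27 to 1.87 for Padi4, -1.60 to 0.0049 for Tgm4, -0.32 to 0.21 for Tgm6 and -0.51 to 0.51 for Mfap2. All genes that rose numbered 395 with the RPKM minimum and 559 to 1183 with 1 library left out, lowest without control replicate 2 (559) and Dnmt1Δ/Δep replicate 1 (591). Genes that fell numbered 116 with DESeq2, 107 without the filter, 35 with the RPKM minimum and 15 to 180 with 1 library left out, highest without control replicate 1. Envelope genes that rose numbered 9 with DESeq2, 9 without the filter and 1 to 10 with 1 library left out, and those that fell 2 with DESeq2 size factors, 3 with DESeq2, 3 without the filter, 2 with the block and 0 to 3 with 1 library left out. Filaggrin processing genes that rose numbered 0 to 1 with 1 library left out, and calcium and protease genes 1 with DESeq2, 1 without the filter and 0 to 2 with 1 library left out. The causes were not tested, beyond fewer samples or genes entering those fits. Where an arm kept 2 libraries, the spread was shared across genes and groups. Depth limits Padi1, Padi6, Tgm4, Tgm6 and Epb42, whose controls held few counts.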
